A study of Mus musculus with 96 samples.

Results

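The contractile-high and contractile-low cells were 28 of the 44 wells labelled as mouse embryonic fibroblasts (MEFs) on a plate of 96 wells. They were chosen by their own readout: the summed level of 6 contractile genes, Acta2, Tagln, Cnn1, Myl9, Tpm2 and Actg2, was taken in each MEF well, and the 14 highest wells were set against the 14 lowest. A level is the number of reads of a gene scaled to the usual CPM unit by the gene reads of its well, with repeat and spike-in reads left out of the total. The 16 MEF wells that lay between both groups are called middle wells. The series used single-cell tagged reverse transcription (STRT), in which a barcode marks the well and reads come from the 5′ end of transcripts, so a CPM value is not divided by transcript length. The plate held 48 wells of R1 embryonic stem (ES) cells, 44 MEF wells and 4 negative control wells, sequenced as 1 library. Per the labels, all MEFs shared 1 medium, DMEM with 10% FBS, penicillin and streptomycin, Glutamax and 2-mercaptoethanol, and neither group had a treatment or a genotype of its own. The labels give no embryo age or strain and no separate cultures, and they name R1, the ES cell line, as the source of these fibroblasts, at odds with the stated cell type. The wells were therefore treated as single cells of 1 culture, no p-value was computed, and every comparison below is between cells, with the spread over cells beside it.

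MEFs are adherent connective tissue cells that can take on a contractile, myofibroblast-like state in culture. In that state they assemble alpha smooth muscle actin, encoded by Acta2, into actin bundles called stress fibres that are anchored at focal adhesions. Genes of this programme are known targets of serum response factor (SRF), which binds a DNA element called the CArG box and is switched on by the cofactor Mkl1 when actin polymerises, and TGF-beta signalling and the mechanically controlled factors YAP and TEAD act on overlapping targets.

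The summed CPM of the 6 genes chose the groups and is a description. In the 14 high wells its lowest, median and highest values were 4285, 5685 and 13909 CPM, in the 16 middle wells 1306, 2922 and 3971 CPM, and in the 14 low wells 114, 582 and 1173 CPM. The last well inside the high group, MEF 89, had 4285 CPM and the first outside it, MEF 83, had 3971 CPM. At the lower border MEF 80, at 1173 CPM, was inside the low group and MEF 88, at 1306 CPM, was outside it. The sum fell off without a gap at either border, so the borders were set by rank alone. Whether the wells hold separate populations was not tested. MEF 76 stood above all other wells, and the next highest, MEF 54, had 8098 CPM. Over the 45 wells of ES cells with 10000 or more reads the sum had a median of 125 CPM. The 4 negative control wells had 0, 0, 1377 and 9867 CPM, the last from 46 of 4662 gene reads.

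**Figure D1:**
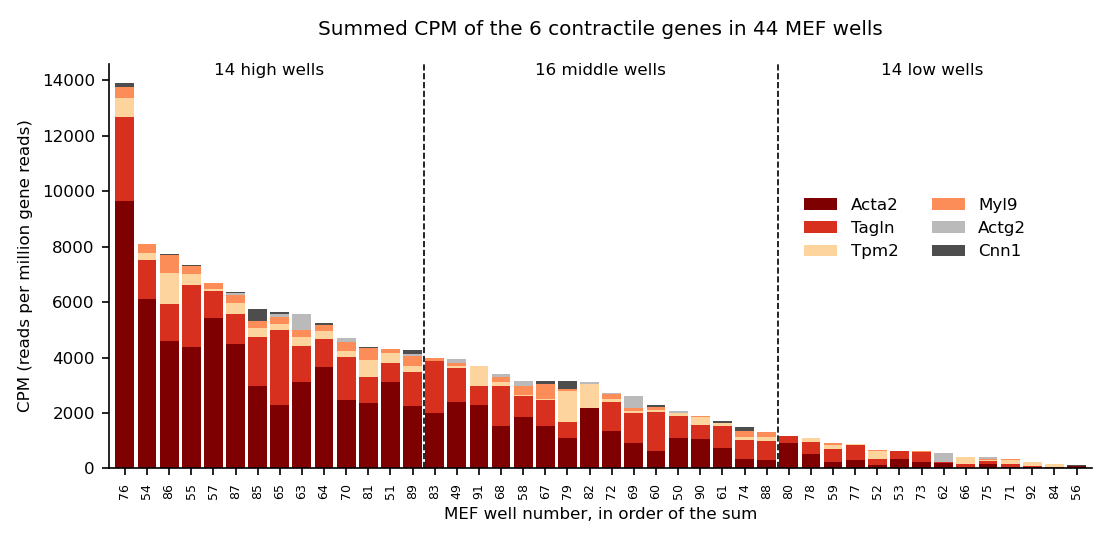
Stacked bars give the CPM of each of the 6 contractile genes in the 44 MEF wells, ordered by their sum, with dashed lines at the borders of the high, middle and low wells. The sum runs from 13909 CPM in MEF 76 to 114 CPM in MEF 56, and Acta2 makes up most of the high wells.

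Acta2 and Tagln, which encodes the actin-binding protein transgelin, dominated the sum. Acta2 measured 2264, 3385 and 9645 CPM (lowest, median, highest) in the high wells and 1.75, 167 and 913 CPM in the low wells, and Tagln measured 657, 1318 and 3046 CPM against 6.42, 166 and 541 CPM. For Myl9, a regulatory light chain of myosin, the values were 155, 293 and 653 CPM against 0, 2.83 and 70.2 CPM. These 3 genes did not overlap between the groups. Tpm2, a tropomyosin that lies along actin filaments, overlapped (89.7, 339 and 1119 CPM against 0, 69.9 and 285 CPM), and a high well was above a low well in 182 of the 14 by 14 pairs of wells. Cnn1, the smooth muscle calponin, and Actg2, the gamma smooth muscle actin, were sparse: Cnn1 had a read in 10 high and 2 low wells, and Actg2 in 8 high and 2 low wells. Actg2 reached 558 CPM in MEF 63 but had a median of 2.43 CPM over the high wells. Its log2 ratio of pooled CPM, 2.69, was 1.23 without MEF 63 and 3.62 without the low well MEF 62, and that of Cnn1, 3.29, was 4.23 without MEF 56.

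The make-up of the contractile reads is a description too, since the same reads chose the wells. Acta2 gave 63.4% of the reads of the 6 genes in the high wells, 48.8% in the middle wells and 34.4% in the low wells, whereas Tpm2 gave 5.76%, 6.45% and 18.7%. Over the 44 wells, which share 1 library and differ in depth, the Spearman correlation was 0.77 between Acta2 and Tagln, 0.74 between Tagln and Myl9 and 0.73 between Acta2 and Myl9. It was 0.52 between Acta2 and Tpm2, 0.56 between Cnn1 and Myl9, 0.42 between Cnn1 and Tagln, 0.35 between Cnn1 and Acta2, 0.30 between Acta2 and Actg2 and -0.06 between Cnn1 and Actg2. The closest relations were thus among Acta2, Tagln and Myl9, and the values for Cnn1 and Actg2 rest on many wells at 0.

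Both groups differed in depth, and this touches every comparison. Gene reads per well had a median of 1051666 (168428 to 1407483) in the high wells and 521880 (63938 to 1471185) in the low wells, genes with a read a median of 6507.5 and 4548, and gene reads per spike-in read a median of 180 and 94.3. The share of reads from ribosomal protein genes was alike, with medians of 13.8% and 14.6%. Over the 44 wells, the Spearman correlation of the contractile sum with gene reads was 0.29, with gene reads per spike-in read 0.21 and with the share of mitochondrially encoded reads -0.20. Fewer transcripts per cell and poorer capture of them cannot be told apart from these values. Both groups were spread over the plate: 6 high and 7 low wells lay in the top rows (A to D), and 8 high and 7 low wells in the bottom rows (the other 4). No barcode was shared between wells, and no doublets were called.

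**Figure D2:**
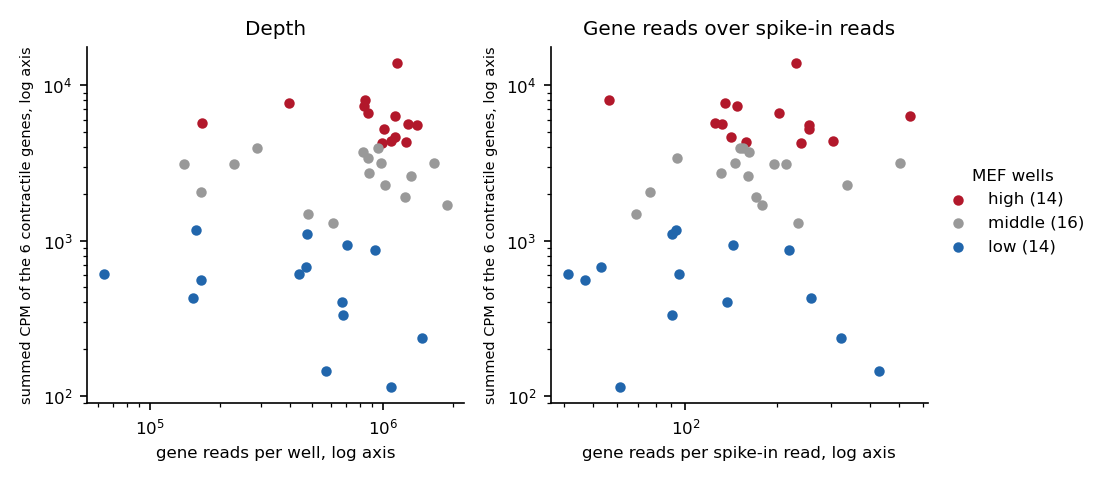
Each point is a MEF well, with the summed CPM of the 6 contractile genes on the vertical axis against its gene reads (left) and its gene reads per spike-in read (right), all on log axes and coloured by group. Low wells extend to fewer reads (63938 at the lowest) than high wells (168428), and the groups overlap in depth above that.

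Genes outside the 6 were compared by the ratio of CPM pooled over the 14 wells of each group, given as a log2 ratio, high over low. Of 9658 such genes with at least 100 reads over the 28 wells, 1954 (20.2%) were at least 2-fold higher in the high wells and 1557 (16.1%) at least 2-fold lower. The median gene had a log2 ratio of 0.03. When wells were scaled by spike-in reads, the median was 0.63 and the counts were 3418 and 798, so directions below are relative to the typical gene of a well. A second measure, added after the data were seen, counted the pairs of 1 high and 1 low well in which the high well had the higher CPM. No gene outside the 6 separated the groups without overlap. In at least 147 of the 14 by 14 pairs the high well was above for 144 genes (1.49%) and the low well for 14 (0.145%), and after each well was thinned to 60000 reads for 60 (0.621%) and 4 (0.0414%). Among 8 high and 8 low wells matched on depth (median gene reads 854877 and 690489.5), 231 genes (2.39%) were higher and 251 (2.6%) lower in at least 48 of 64 pairs. In the top plate rows alone 660 genes (6.83%) were higher and 174 (1.8%) lower in at least 32 of 42 pairs. The bottom rows gave 458 (4.74%) and 63 (0.652%) in at least 42 of 56 pairs. The part of depth in the excess of higher genes was not tested. By both measures together, 91 genes (0.942%) were higher and 7 (0.0725%) lower. In the depth-matched wells 90 of the 91 kept the direction of their pooled ratio and 58 passed the pair measure again. Those wells belong to the same 28, so this is no independent check.

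Fibroblast markers were present in both groups. Vim, encoding the mesenchymal intermediate filament protein vimentin, measured 667, 3113 and 6041 CPM in the high wells and 944, 3290 and 5947 CPM in the low wells, and Fn1, encoding fibronectin, measured 2093, 10876 and 36663 CPM against 2091, 8910.3 and 34129 CPM. Col1a1, a chain of type I collagen, was read in all 28 wells. The groups overlapped in full for these markers. Markers of other cells that make smooth muscle proteins were read in part. Of 17 genes listed for pericytes and vascular smooth muscle, 6 reached 100 reads, and their summed level was 96.5 to 2323 CPM in the high and 52.3 to 1470.5 CPM in the low wells. These were Pdgfrb (118 and 103 CPM in the pooled high and low wells), Mcam (79.95 and 41.6 CPM), Notch3 (63.2 and 136 CPM), Cspg4 (43.5 and 35.4 CPM), Rgs5 (47.4 and 88.1 CPM) and Rgs4 (156 and 42.2 CPM, read in 5 high and 3 low wells). Of these 6 markers, 1 was at least 2-fold higher and 1 lower (20.2% and 16.1% of all genes). Their part in the results was not tested. In both groups 6 of the 17 were at 0, Kcnj8 and Higd1b among them. Myh11, the defining smooth muscle myosin, had 86 reads in the high wells (6.34 CPM), in 3 of them, and 2 reads in the low wells. Des, encoding the muscle filament protein desmin, had 14 and 0 reads, and Myocd, the smooth muscle cofactor of SRF, 10 and 0. Of 27 skeletal and cardiac muscle markers 1 reached 100 reads, Acta1, and Myod1 and Myog were at 0. None of 16 macrophage and blood markers, 3 of 14 endothelial and 3 of 14 epithelial markers reached 100 reads, with Pecam1 and Cdh5 at 0 and Ptprc at 1 read. The endothelial 3 went both ways: Flt1, Kdr and Eng had log2 ratios of 5.10 (3.88 without MEF 63), -2.67 (-1.79 without MEF 92) and 0.15 (-1.08 without MEF 89). The summed endothelial level was 0, 16.9 and 281 CPM in the high and 0, 50.5 and 283 CPM in the low wells. The epithelial 3, Krt19, Krt7 and Krt18, had log2 ratios of 3.67, 1.83 (0.35 without MEF 89) and -0.48 (0.69 without MEF 56). The ES cell marker Nanog was at 0 in both groups, and Dppa5a, the 1 of 20 ES cell markers with 100 reads, had 18.1 CPM in the high and 20.7 CPM in the low wells against 4816 CPM in the ES cells. Of 13 neural and glial markers 5 reached 100 reads, 2 at least 2-fold higher and 2 lower (20.2% and 16.1% of all genes). The summed level of the neural list was 0, 297 and 1112 CPM in the high and 0, 75.1 and 735 CPM in the low wells. Tubb3, a neuronal tubulin, had 96.01 and 18.3 CPM in the pooled wells, and Stmn2, a neuronal protein, 4.86 and 86.5 CPM. Of 11 mesothelial markers 2 reached 100 reads, Krt19, read in 5 high and 2 low wells (26.9 and 2.12 CPM), and Upk1b, read in 2 of each (9.80 and 1.12 CPM). The part of these markers in the results was not tested.

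Some of the genes that were higher in the contractile-high wells encode parts of the actin cytoskeleton. Tpm4, a tropomyosin of non-muscle cells, measured 436, 712 and 1702 CPM (lowest, median, highest) in the high wells and 15.6, 248 and 1090.2 CPM in the low wells. Pooled, it had 782 CPM (95% interval 767 to 797) in the high and 316 CPM (304 to 329) in the low wells, exact Poisson intervals that cover counting error only. Its log2 ratio was 1.31, and the high well was above in 177 pairs. The median low well thus lay under the lowest high well, while the ranges overlapped. Flna encodes filamin A, which cross-links actin filaments. It measured 435, 938 and 1511 CPM against 160, 321 and 1212.5 CPM, a log2 ratio of 1.18, with 173 pairs. Dstn encodes destrin, which severs actin filaments and frees monomers. It measured 463, 1115 and 2536 CPM against 91.5, 393 and 1261 CPM, a log2 ratio of 1.44, with 170 pairs. Flna and Dstn, like the other genes named here outside the naming rule, were picked after their values were seen. Cnn2, the calponin of non-muscle cells, measured 125, 572 and 945 CPM against 0, 129 and 1470.2 CPM, a log2 ratio of 1.53, with 170 pairs. The low well with the highest Cnn2 was above every high well. Myl6, the essential light chain of non-muscle and smooth muscle myosin, measured 201, 1032 and 4085 CPM against 6.03, 314 and 1152.5 CPM, a log2 ratio of 1.25, with 169 pairs. For these 5 genes no single well, when left out, moved the ratio by more than 1.5-fold, and in the top and the bottom plate rows apart the lowest log2 ratio was 0.75, that of Flna in the top rows.

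Genes of focal adhesions and further cross-linkers were also compared. Vcl, encoding vinculin, which ties integrin adhesions to actin, measured 5.94, 558 and 1396 CPM against 0, 155 and 1236 CPM, a log2 ratio of 1.24 with 148 pairs. Lima1, encoding the actin-bundling protein EPLIN, had a log2 ratio of 0.86 and 156 pairs, and Actn1, encoding the stress fibre cross-linker alpha-actinin 1, 0.77 and 160 pairs. Neither reached 2-fold in the pooled values, and for Actn1 the ratio came from the bottom rows (2.16) and not from the top rows (-0.14). Actb, the beta actin gene, measured 5380, 10276 and 17182 CPM against 1700, 6204 and 17267 CPM, a log2 ratio of 0.67 with 152 pairs. Of the Actb reads 79% were unique in the authors' mapping, so its level is uncertain because near-identical copies can share reads. Myh9, the heavy chain of non-muscle myosin IIA, hardly differed at 488 and 334 CPM in the median well and a log2 ratio of 0.19.

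**Figure D3:**
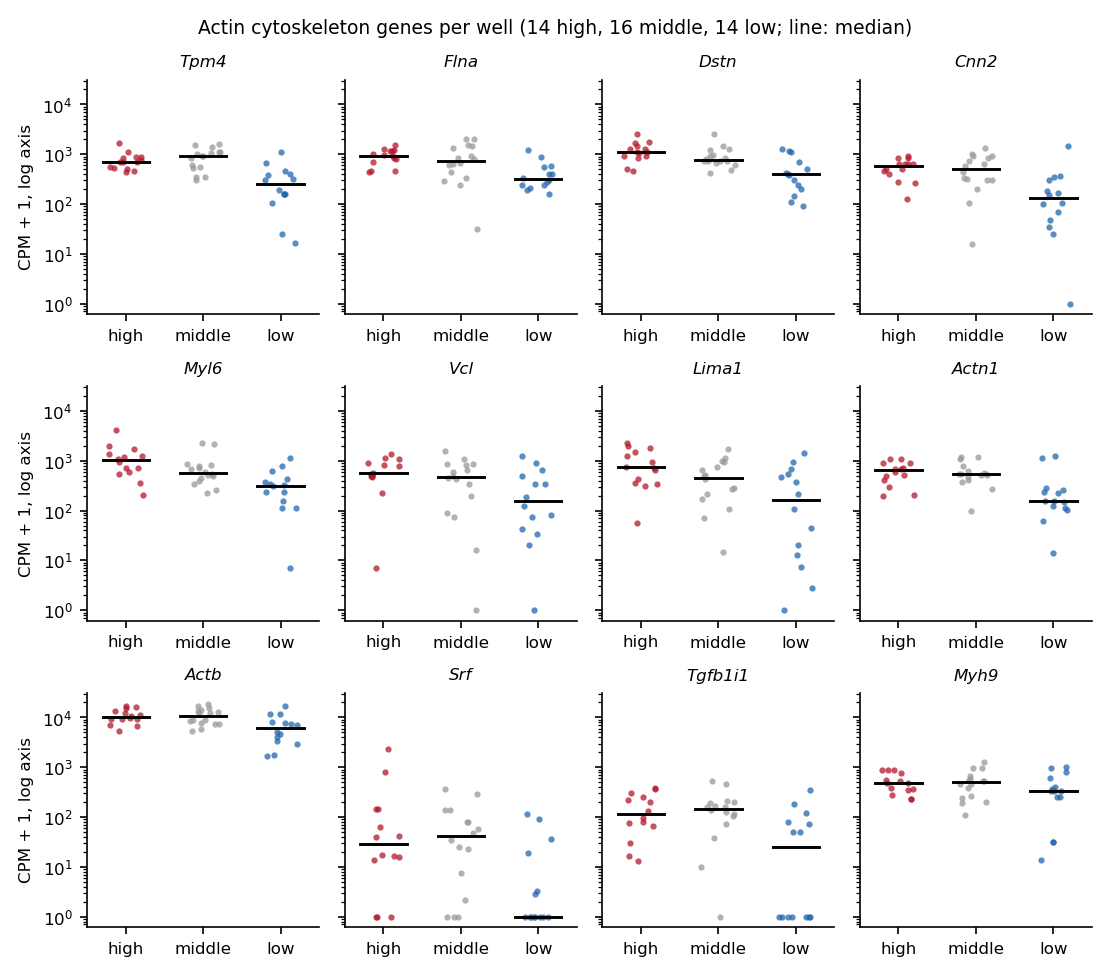
Each panel shows 1 gene, with a point for each of the 14 high, 16 middle and 14 low wells at CPM + 1 on a log axis and a line at the group median. For Tpm4, Flna, Dstn and Cnn2 the low wells sit lowest (medians 248, 321, 393 and 129 CPM) while middle and high wells overlap, and Myh9 shows little difference.

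Over the whole list of 36 stress fibre and focal adhesion genes, all with at least 100 reads, 6 were at least 2-fold higher and 0 at least 2-fold lower. That share of higher genes is near the 20.2% of all genes. The list's median log2 ratio was 0.56 above the median gene, 11 of the 36 were above in at least 147 pairs (1.49% of all genes) and 9 after thinning (0.621%). The differences were thus mostly under 2-fold and spread over many wells. Parva (encoding parvin alpha, at integrins) and Actn4 were among the 11, with log2 ratios of 0.73 and 0.63. Cttn, Msn and Itgb1, also of this list, went the other way, at -0.50, -0.47 (0.23 without MEF 84) and -0.16. The summed level of the list was 20881, 32570 and 39881 CPM in the high wells and 10366, 20594 and 42592 CPM in the low wells, with the high well above in 163 pairs. The list median was 0.18 in the top rows, 0.58 in the bottom rows and 0.46 in the depth-matched wells.

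A list of 29 other smooth muscle and myofibroblast genes had a median log2 ratio 0.67 above the median gene, but its summed level was not higher in the high wells. Of 22 members with at least 100 reads, 9 were at least 2-fold higher and 1 lower (20.2% and 16.1% of all genes), and 2 passed the pair measure (1.49% of all genes), Nexn and Fhl2. Nexn, encoding the actin-binding protein nexilin, measured 0, 38.5 and 274 CPM in the high wells and 0, 0 and 66.4 CPM in the low wells, with reads in 13 high and 4 low wells. Its log2 ratio was 3.11 (3.75 without MEF 73). Fhl2, a LIM domain cofactor found at focal adhesions, measured 3.10, 117 and 475 CPM against 0, 12.2 and 345 CPM, a log2 ratio of 1.24 (2.03 without MEF 75), and only 0.05 in the top rows. Tpm1, an alpha tropomyosin of many isoforms, measured 5555 CPM in the pooled high and 6261 CPM in the pooled low wells, with a log2 ratio of -1.33 in the top rows and 2.17 in the bottom rows. Cald1, encoding caldesmon, had 3542 and 2992 CPM. The summed level of the list was 5169.9, 11252 and 23266 CPM in the high and 3502, 13202 and 18983 CPM in the low wells, with the high well above in 96 pairs. Smtn (smoothelin) and Csrp1 were sparse in both groups, at 29.1 and 7.22 CPM (log2 ratio 2.01, 2.80 without MEF 56) and at 22.8 and 7.10 CPM (1.69, 3.64 without MEF 92).

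Of the regulators that act on these genes, Srf and Tgfb1i1 were higher in the high wells. Srf was read in 11 high and 6 low wells and measured 0, 27.3 and 2316 CPM against 0, 0 and 116 CPM. Its log2 ratio of 2.19 rested in part on MEF 81 and was 1.33 without that well and 2.95 without the low well MEF 77, with 132 pairs. Tgfb1i1, encoding Hic-5, a focal adhesion protein that also acts as a nuclear cofactor, measured 11.9, 113 and 383 CPM against 0, 24.1 and 344 CPM, a log2 ratio of 1.58 with 153 pairs. It was read in all 14 high and in 7 low wells. Mkl1 had 31.7 CPM in the pooled high and 18.4 CPM in the pooled low wells, a log2 ratio of 0.78 that was -0.22 in the depth-matched wells. Rhoa, encoding the GTPase that drives stress fibre assembly, was alike at 312 and 282 CPM.

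The 250 bases before the RefSeq transcription start are printed for 4 genes with a perfect CArG box, written in capitals, and for Acta2, which had no perfect box in this window (GRCm38.p6, 5′ to 3′ in the direction of the gene).
Srf, chr17:46556163-46556412, minus strand: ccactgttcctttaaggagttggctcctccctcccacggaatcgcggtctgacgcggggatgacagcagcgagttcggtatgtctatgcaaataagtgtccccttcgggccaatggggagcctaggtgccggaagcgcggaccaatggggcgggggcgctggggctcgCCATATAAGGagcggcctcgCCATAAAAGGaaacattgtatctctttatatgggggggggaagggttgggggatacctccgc
Myl9, chr2:156775214-156775463, plus strand: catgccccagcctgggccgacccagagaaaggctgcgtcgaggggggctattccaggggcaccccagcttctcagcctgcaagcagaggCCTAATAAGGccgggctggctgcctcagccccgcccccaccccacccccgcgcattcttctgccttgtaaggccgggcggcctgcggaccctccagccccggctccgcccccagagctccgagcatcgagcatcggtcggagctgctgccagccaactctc
Cnn2, chr10:79988350-79988599, plus strand: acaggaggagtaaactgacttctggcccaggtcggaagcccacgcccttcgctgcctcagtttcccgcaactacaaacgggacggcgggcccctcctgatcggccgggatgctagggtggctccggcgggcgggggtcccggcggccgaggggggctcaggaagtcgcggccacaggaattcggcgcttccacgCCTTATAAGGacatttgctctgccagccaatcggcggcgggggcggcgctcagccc
Vcl, chr14:20929148-20929397, plus strand: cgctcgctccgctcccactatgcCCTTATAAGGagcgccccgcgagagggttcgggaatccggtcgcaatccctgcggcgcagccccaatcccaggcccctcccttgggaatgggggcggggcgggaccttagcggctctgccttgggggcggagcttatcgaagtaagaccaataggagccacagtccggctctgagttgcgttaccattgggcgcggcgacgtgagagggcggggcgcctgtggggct
Acta2, chr19:34255374-34255623, minus strand: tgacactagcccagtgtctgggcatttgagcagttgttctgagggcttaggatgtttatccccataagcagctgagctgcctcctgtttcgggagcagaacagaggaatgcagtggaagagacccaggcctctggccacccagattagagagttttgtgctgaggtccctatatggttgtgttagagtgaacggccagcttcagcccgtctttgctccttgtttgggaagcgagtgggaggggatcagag
The box began 82 and 62 bases before the start in Srf, 161 in Myl9, 56 in Cnn2 and 227 in Vcl. Lima1 held 1 as well, 47 bases before its start. A perfect copy, read on either strand since the element is palindromic, was found in 482 of all 32851 windows (1.47%) and in 116 of 7734 measured genes with an entry (1.5%). Of these 116, 34 were at least 2-fold higher and 13 lower (20.2% and 16.1% of all genes). In at least 147 pairs 6 were above (Cnn2, Myl6, Lima1, Myom1, Fhl2 and Vcl) and 2 below (Meg3 and 0910001L09Rik), against 1.49% and 0.145% of all genes. The median log2 ratio of the 116 was 0.38 above the median gene and 0.04 in the depth-matched wells. Cnn1 and Tpm2 held no perfect copy in the window, and Tagln and Actg2 had no entry. Imperfect copies were not counted, and the Acta2 window holds ccctatatgg and ccttgtttgg, each 1 base from a perfect copy. A match is a description of the letters only.

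Collagens did not differ as 1 class. Col1a2, a chain of type I collagen, measured 85.3, 1945 and 7031 CPM in the high wells and 17.5, 3688 and 10432 CPM in the low wells, a log2 ratio of -0.43, and Col1a1 had a ratio of -0.26. Spike-in scaling, which raised all genes alike, put them at 0.17 and 0.34, still under the median gene on that scale. Type IV collagen, the network of basement membranes, was higher in the high wells: Col4a1 measured 138, 825 and 3671 CPM against 0, 230 and 2228 CPM, a log2 ratio of 1.61 (2.23 without MEF 75), with 148 pairs. Col4a2, its partner chain and neighbour in the genome, measured 49.97, 727 and 2784 CPM against 0, 363 and 1183 CPM, a log2 ratio of 1.56, but fewer than 147 pairs. Col8a1, a short-chain collagen of vessel walls and endothelial membranes, measured 249, 775 and 3434 CPM against 0, 319 and 1038 CPM, a ratio of 1.38 with 162 pairs. Col3a1, of fibrillar type III collagen, had a ratio of 1.63 that was 0.79 without MEF 57, was 2.40 without MEF 78 and was -0.01 in the bottom rows. Of the 16 measured of 20 listed collagens, 5 were at least 2-fold higher and 0 lower (20.2% and 16.1% of all genes), and the median was 0.38 above the median gene.

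Among matrix glycoproteins, Fbln5 was higher in the high wells. It encodes fibulin 5, which organises elastic fibres, and measured 19.4, 717 and 5389.8 CPM against 0, 60.7 and 2637 CPM, a log2 ratio of 2.29 (1.61 without MEF 63), with 155 pairs. Lamc1, the common gamma chain of laminins, and Emilin1, an elastic fibre glycoprotein, also passed the pair measure, at log2 ratios of 1.42 and 1.15 with 159 and 149 pairs. Emilin1 was at -0.02 when wells were ranked by Acta2 alone. The abundant matrix genes were alike: Thbs1 (thrombospondin 1) had 14263 and 13894 CPM and Sparc 3823 and 3820 CPM in the pooled wells. In some genes 1 well set the pooled ratio. Fmod, encoding fibromodulin, had 4.42 CPM in the pooled high and 451 CPM in the pooled low wells, but its log2 ratio of -6.67 was 3.48 without MEF 78 and -8.17 without MEF 63. Eln, encoding elastin, had a log2 ratio of -1.40 that was 1.31 without MEF 77 and -2.50 without MEF 51. Spp1, encoding osteopontin, measured 0, 20.3 and 635 CPM against 0, 31.9 and 3448 CPM, a log2 ratio of -3.17 (-2.51 without MEF 59, -3.83 without MEF 76). Of 36 measured of 41 listed glycoproteins and proteoglycans, 7 were at least 2-fold higher and 6 lower (20.2% and 16.1% of all genes), with a median of 0.01.

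Genes that process the matrix went both ways, proteases and inhibitors alike. Adamts5, a protease of aggrecan and versican, measured 4.92, 467 and 979 CPM against 0, 48.8 and 627 CPM, a log2 ratio of 1.66 (2.82 without MEF 92), with 155 pairs. Pcolce, an enhancer of procollagen C-proteinase, had a ratio of 1.08 with 148 pairs. Timp1, an inhibitor of metalloproteinases, measured 0, 130.4 and 1132 CPM against 0, 9.76 and 522 CPM, a ratio of 1.52 (2.42 without MEF 59). Timp2, a related inhibitor of metalloproteinases that also helps to activate Mmp2, went the other way: it measured 487, 2016.5 and 4018 CPM in the high and 813, 3618 and 8502.5 CPM in the low wells, a log2 ratio of -0.93, with the low well above in 140 pairs. Timp3 had a ratio of -0.77 with the low well above in 133 pairs. Serpine2 (protease nexin 1) had -1.03, and Mmp2, the gelatinase, -0.93, which was 0.26 in the top rows. The summed level of the list was 8055, 12506 and 22875 CPM in the high and 10588, 16416 and 29111 CPM in the low wells, with the high well above in 47 pairs, although 10 of 30 measured members (33 listed) were at least 2-fold higher and 3 lower (20.2% and 16.1% of all genes).

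**Figure D4:**
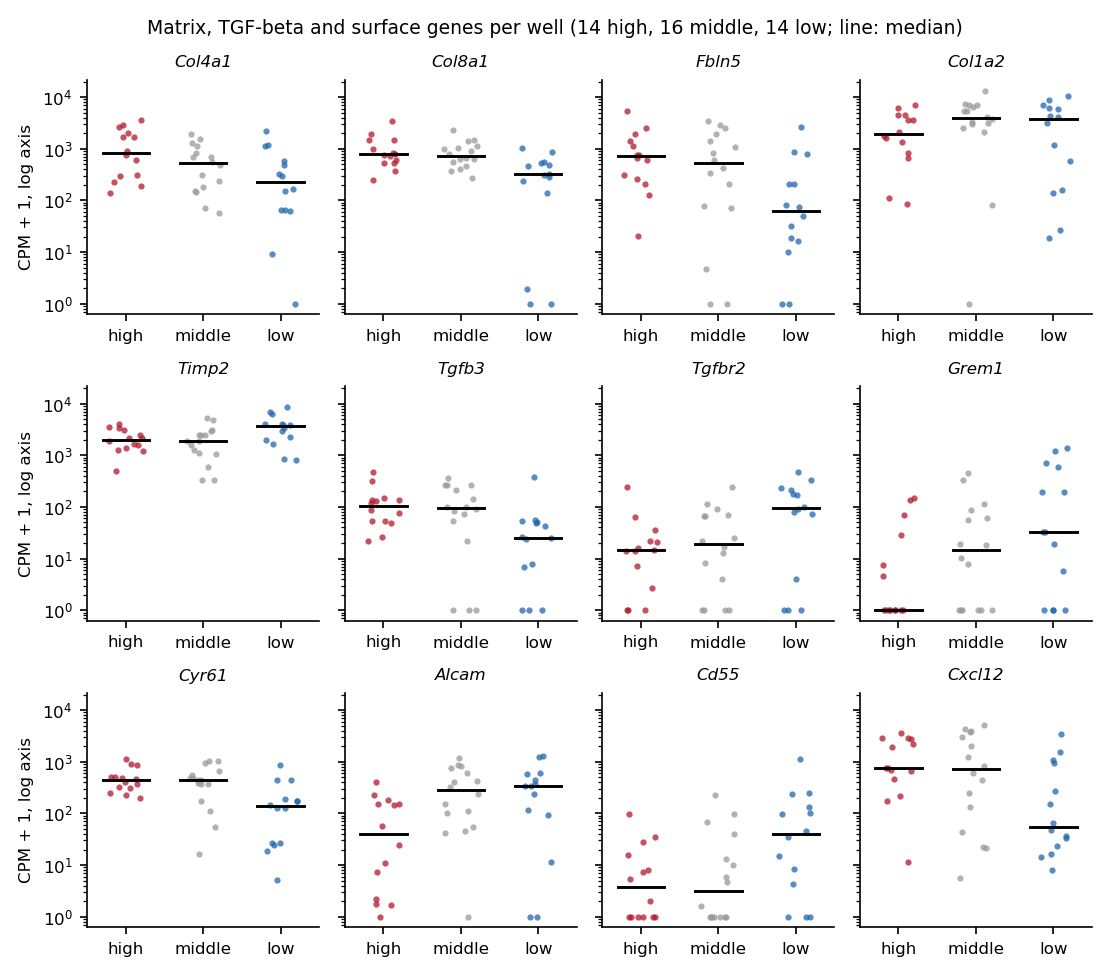
Each panel shows 1 gene, with a point for each of the 14 high, 16 middle and 14 low wells at CPM + 1 on a log axis and a line at the group median. Fbln5, Tgfb3 and Cxcl12 have lower medians in the low wells (60.7, 24.5 and 54.8 CPM), Tgfbr2, Grem1, Alcam and Cd55 have lower medians in the high wells (13.6, 0, 39.5 and 2.72 CPM), and all genes overlap between groups.

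TGF-beta genes differed in ligand and receptor but not as a list. Of the ligands, Tgfb3 measured 20.6, 102 and 468 CPM in the high wells and 0, 24.5 and 375 CPM in the low wells, a log2 ratio of 1.85 with 164 pairs. Pooled, it had 129 CPM (95% interval 123 to 135) in the high and 35.7 CPM (31.7 to 40.1) in the low wells. It was read in 14 high and 11 low wells, and its ratio was 1.60 in the top rows and 1.94 in the bottom rows. Tgfb2 was less different, at 176 and 130 CPM in the pooled wells, and Tgfb1 was barely read, with 17 reads in 1 high well and 0 in the low wells. Tgfbr2, the type II receptor that binds the ligands, was higher in the low wells, at 0, 13.6 and 244 CPM in the high against 0, 95.2 and 467 CPM in the low wells. Its log2 ratio was -2.92 (-2.32 without MEF 92), with the low well above in 136 pairs. The type I receptor Tgfbr1 was sparse, at 26.8 and 25.02 CPM, with a log2 ratio of 0.10 (0.92 without MEF 73). Grem1 encodes gremlin 1, a secreted BMP antagonist. It was read in 6 high and 10 low wells and measured 0, 0 and 147 CPM against 0, 31.6 and 1352 CPM, a log2 ratio of -3.58 (-2.97 without MEF 56), with the low well above in 125 pairs. Bmp4, a ligand that gremlin 1 binds, went the other way. It measured 0, 24.5 and 365 CPM in the high and 0, 0 and 64.2 CPM in the low wells, was read in 12 high and 4 low wells, and had a log2 ratio of 2.88 (4.04 without MEF 75) with 153 pairs. Smad3 and Smad7, a transducer and an inhibitor of the pathway, had log2 ratios of -0.17 (0.62 without MEF 62) and 0.07. Of 30 measured of 33 listed ligands, receptors, storage proteins and Smads, 6 were at least 2-fold higher and 3 lower (20.2% and 16.1% of all genes), and the list median lay at that of all genes.

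Targets of TGF-beta and YAP were mixed. Cyr61, a matricellular protein and YAP target, measured 201, 438 and 1116 CPM in the high and 4.26, 136 and 868 CPM in the low wells, with the high well above in 171 pairs. Its log2 ratio of 0.99 was just under 2-fold and 1.65 without MEF 77. Ctgf, the related connective tissue growth factor, had a ratio of 0.82 with 146 pairs, and Tead1, the DNA-binding partner of YAP, 0.83 with 148 pairs. Ankrd1, another YAP target, had 104 and 71.8 CPM, a log2 ratio of 0.54 that was 2.96 without MEF 59. Of 34 measured of 36 listed targets, 3 were at least 2-fold higher and 6 lower (20.2% and 16.1% of all genes), and the median was 0.05 above the median gene.

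Some genes of progenitor-like fibroblasts and of the stromal surface were higher in the low wells. Alcam, an adhesion molecule also known as CD166, measured 0, 39.5 and 413 CPM in the high and 0, 340 and 1294 CPM in the low wells, a log2 ratio of -2.46 with the low well above in 144 pairs. Cd55, a surface inhibitor of complement, measured 0, 2.72 and 98.1 CPM against 0, 39.2 and 1149.7 CPM, a log2 ratio of -3.26 (-1.82 without MEF 59, -4.36 without MEF 51), with the low well above in 135 pairs. Ly6a, which encodes Sca-1, a marker of stem-like stromal cells, measured 10.6, 128 and 1567 CPM against 11.5, 248 and 1510 CPM, a log2 ratio of -1.64, with the low well above in 128 pairs. Its groups overlapped over almost their whole range. Ly6c1 had a pooled log2 ratio of -2.74 that was -0.30 without MEF 92 and -3.40 without MEF 51, and part of its reads were not unique to it. Thy1, encoding CD90, went the other way at 1.15 (2.06 without MEF 52). Cd34 and Pdgfra, the usual markers of such cells, were at 0 in the high wells and had 53 and 58 reads in the low wells, in 1 and 2 of them, so they do not describe either group. Pi16 and Dpp4 had 1 read each. Of 24 measured of 39 listed genes, 4 were at least 2-fold higher and 8 lower (20.2% and 16.1% of all genes), with a median 0.39 under that of all genes, and none passed the pair measure in either direction. The median was -0.96 in the top rows and 0.15 in the bottom rows. Other mesenchymal lists did not pass the pair measure for any gene. Of 11 measured adipogenic genes 2 were at least 2-fold higher and 3 lower (20.2% and 16.1% of all genes). The counts were 3 and 1 of 7 chondrogenic and osteogenic genes, and 3 and 4 of 26 mesenchymal transcription factors, against the same shares of all genes.

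**Figure D5:**
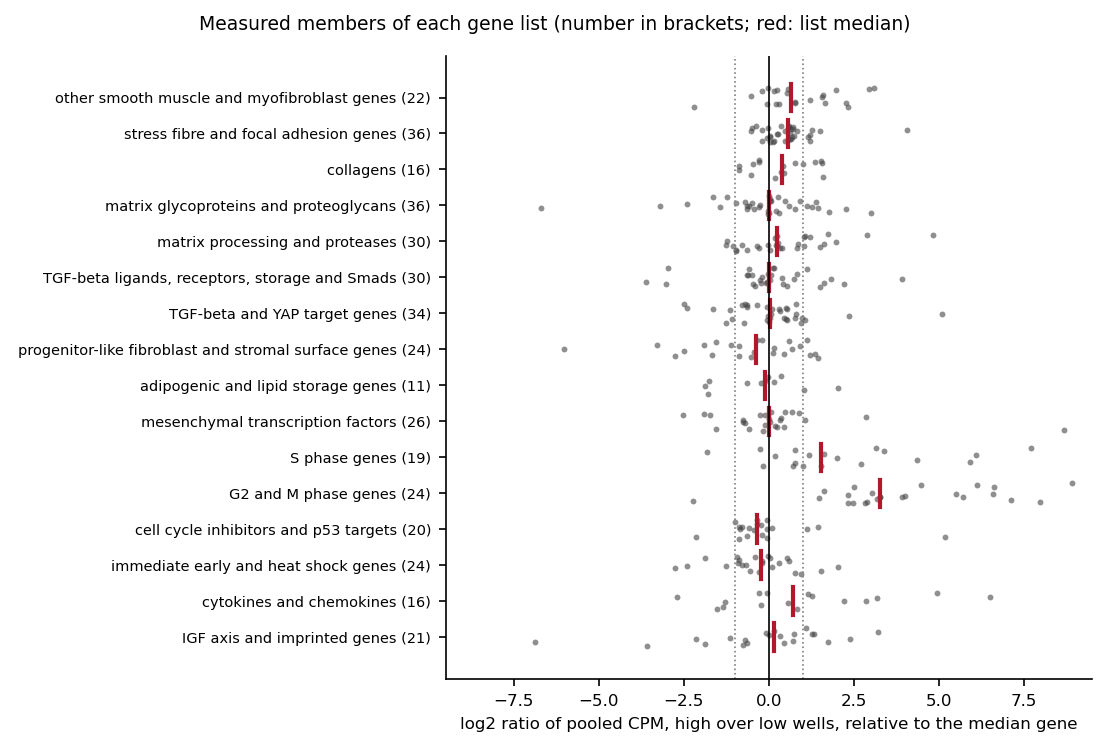
Each point is a gene with at least 100 reads over the 28 wells, placed by its log2 ratio of pooled CPM, high over low wells, relative to the median gene, with 1 row for each of 16 gene lists and a red line at the list median. Stress fibre genes lie mostly to the right of 0 (median 0.56), the median of progenitor-like genes lies to the left (-0.39), and the cell cycle lists spread far to the right (1.53 and 3.27).

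Cytokine and chemokine genes differed in both directions. Of 16 measured of 31 listed, 7 were at least 2-fold higher and 4 lower (20.2% and 16.1% of all genes), 2 passed the pair measure (1.49% of all genes), and the median was 0.70 above the median gene. Cxcl12, the chemokine of stromal cells, measured 10.6, 753 and 3644 CPM in the high and 6.87, 54.8 and 3463 CPM in the low wells, with 148 pairs. Its log2 ratio was 1.29 (2.89 without MEF 77), 5.35 in the top rows and 0.04 in the bottom rows. Pdgfa, a growth factor for mesenchymal cells, had a ratio of 1.18 with 155 pairs. Ptgs2, the inducible cyclooxygenase, measured 0, 2.33 and 513 CPM against 0, 49.4 and 2338 CPM, a ratio of -1.48 that was -0.11 without MEF 59. Some of the higher members were read in few wells. Ptx3, encoding pentraxin 3, was read in 4 high and 5 low wells (log2 ratio 3.196, 1.17 without MEF 51, 4.71 without MEF 78), and Ccl2, a chemokine for monocytes, in 5 high and 4 low wells (2.89, 1.01 without MEF 81, 4.19 without MEF 62). Il6 and Fgf10 were read in 3 and 2 high wells and in 0 low wells. Among IGF axis and imprinted genes, Meg3, a non-coding RNA of the Dlk1 locus, was lower in the high wells, at 4.60, 193 and 630.5 CPM against 0, 599.9 and 1673.5 CPM, a log2 ratio of -1.10 with the low well above in 152 pairs. Igf2 and H19, a pair of imprinted genes at 1 locus, had log2 ratios of 0.73 (1.49 without MEF 77) and 0.05 (-2.13 without MEF 51, 1.13 without MEF 56), and Igf2 was at -0.82 in the depth-matched wells. Igfbp5 had the lowest pooled ratio of those named, -6.86 (-4.66 without MEF 77, -7.47 without MEF 54), but medians of 1.94 and 2.11 CPM. Of 21 measured IGF axis and imprinted genes, 6 were at least 2-fold higher and 5 lower (20.2% and 16.1% of all genes).

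Some stress and arrest genes were higher in the low wells. Mt1, encoding the metal-binding metallothionein 1, measured 3.96, 131 and 579 CPM in the high and 0, 473 and 4598.5 CPM in the low wells, a log2 ratio of -2.09 with the low well above in 142 pairs. Hmox1, the haem oxygenase of the oxidative stress response, measured 2.84, 52.9 and 1979 CPM against 0, 188 and 7657.5 CPM, a ratio of -1.86 that was 0.10 in the bottom rows. Cdkn2b, encoding the cell cycle inhibitor p15, had a ratio of -0.96 with the low well above in 144 pairs. Over the 20 arrest and p53 genes 3 were at least 2-fold higher and 1 lower (20.2% and 16.1% of all genes), with a median 0.35 under that of all genes. A pair of heat shock genes went the other way: Hspb1, a small chaperone that binds actin, had a log2 ratio of 2.05 with 124 pairs, and Hsph1 1.57 (2.24 without MEF 59) with 147 pairs. In the list of heat shock and immediate early genes, 2 of 24 measured members were higher and 4 lower by at least 2-fold (20.2% and 16.1% of all genes). The list median was -0.24 relative to the median gene.

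Cell cycle lists had high pooled medians that moved with single wells. The 24 genes of G2 and M phase had a median of 3.27 and the 19 measured S phase genes 1.53 relative to the median gene. At least 2-fold higher and lower were 23 and 1 of the former and 12 and 1 of the latter (20.2% and 16.1% of all genes), and no gene of either list passed the pair measure. Yet the median well had a summed G2 and M level of 61.9 CPM in the high and 60.2 CPM in the low group. Above 500 CPM were 2 high wells and 1 low well, with 7770 CPM in MEF 51 and 8734 CPM in MEF 80. In the bottom rows the medians were -4.49 and -1.16. Without MEF 51 the G2 and M median was 2.42 and without MEF 80 it was 4.95, and the S phase median was 0.58 without MEF 89 and 2.76 without MEF 80. Wells with a high level of these genes were found in both groups, and the pooled values are not read as a difference.

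The remaining genes that the naming rule put at either end cover many functions. At the upper end were Ptpla, a fatty acid elongation enzyme read in 13 high and 2 low wells (log2 ratio 4.15, 6.25 without MEF 75, 176 pairs), and Bak1, a pore-forming protein of apoptosis read in 14 high and 6 low wells (2.11, 3.06 without MEF 78, 178 pairs). Myom1, which encodes a protein of the sarcomere M band, had 82.5 CPM in the high wells, with reads in 11 of them, and 1 read over the low wells. Wsb1, Ap2a2 and Dnm3os were also named, with log2 ratios of 1.48, 1.20 and 2.54 (3.70 without MEF 59, 1.84 without MEF 65). Il11ra1, a receptor for interleukin 11, had a ratio of 2.17 (3.46 without MEF 75), but only 55.1% of its reads were unique, and the near-identical Il11ra2 shares them. At the lower end were Ogdh, a subunit of an enzyme of the citric acid cycle, at 1.15, 20.3 and 139.1 CPM against 2.96, 132 and 657 CPM (log2 ratio -1.63, low well above in 153 pairs), and Rnf216, a ubiquitin ligase, at -2.42 (-1.29 without MEF 84) with 147 pairs. Etnk1, Scn3b, Lhfpl2, Mpv17 and 1810013L24Rik had log2 ratios of -2.32 (-1.26 without MEF 77, -3.62 without MEF 54), -3.10 (-6.56 without MEF 54, -2.51 without MEF 71), -2.52 (-3.42 without MEF 54), -1.71 (-2.94 without MEF 63) and -1.82 (-2.48 without MEF 51). The 7 genes lower by both measures were Rnf216, Tcn2, Ogdh, C230081A13Rik, Gm13646, Hist1h2bg and Meg3, of which Gm13646 and Hist1h2bg share most of their reads with near-identical copies and are uncertain, and Tcn2, encoding the vitamin B12 carrier transcobalamin 2, measured 0, 41.2 and 88.4 CPM in the high and 0, 138 and 373 CPM in the low wells.

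The middle wells, which played no part in the comparison, were set beside both groups for these genes. Their gene reads had a median of 868392, against 521880 in the low wells. Of the 91 genes higher by both measures, the pooled level of the middle wells was nearer to the high wells for 63, on a log scale, and nearer to the low wells for 28, and in 19 it was above the high wells. Tpm4 had pooled levels of 782 CPM in the high, 809 CPM in the middle and 316 CPM in the low wells, and Cnn2 534, 515 and 185 CPM, so for these genes the low wells stood apart. Col4a1 was different, at 1387, 542 and 456 CPM. Within the 16 middle wells, the Spearman correlation of the contractile sum was -0.05 with Tpm4, -0.04 with Cnn2 and 0.26 with Myl6. With Flna, Dstn, Vcl and Actn1 it was -0.03, 0.04, -0.09 and -0.35, and with the summed stress fibre and focal adhesion list 0.04. It was 0.58 with Tead1 and -0.64 with Grem1, which were not called by both measures. Over the 91 genes that correlation had a median of -0.03, from -0.62 for Bmp4 to 0.52 for Col4a1, and it was above 0 for 43 of them. None of these counts was made over all genes, so they cannot be set against the typical gene. These wells share the same plate, library and culture and differ in depth, so the correlations are a description.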

How the data were processed

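Per the file headers, the authors deposited raw counts of reads per gene, spike-in and repeat type for each well, and no molecular identifiers were counted. Reads were aligned with Bowtie, per the submitters' processing notes, and the genome build is not given in the sources used here. The table held 21711 gene rows, 8 spike-in rows and 1217 repeat rows, and spike-in and repeat rows were left out of totals and tests. PCR reads are not independent molecules, so intervals cover counting error only.

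The 44 MEF wells were ranked by the summed CPM of the 6 rule genes, and the 14 highest were compared with the 14 lowest. Counts were pooled per group and divided by pooled gene reads, and a group at 0 was set to 3 reads for a ratio. Genes needed 100 reads over the 28 wells. No test was run, because the wells are cells of 1 culture split by their own readout. The added call needed 147 of the 14 by 14 well pairs, also after thinning to 60000 reads, which left out 0 wells. The members and lists were chosen with earlier results of these data known. Genes were named by a rule, which took the 12 highest and 12 lowest by the difference in mean log2(CPM + 10), high minus low wells. These needed a read in at least 50% of the wells of the higher group and a 2-fold ratio of both pooled and mean CPM. The 2-fold ratios had to hold without the top well, and the direction in both the top and bottom plate rows. The rule also took 4 genes from each of 27 lists and a set of fixed genes. Other names were added after their values were seen. Some genes that the rule covers, and the summary of 1 list, are not reported here. List entries matched for 647 of 649. Promoters came from RefSeq on GRCm38.p6, and 80.08% of measured genes had one.

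Python 3.11.15, numpy 2.4.6, pandas 2.3.3, scipy 1.17.1 and matplotlib 3.10.9 were used. The comparison was tested on simulated data for 9664 genes, of which 200 were changed, and 100% of the 4-fold changes were recovered. Of the unchanged genes 0.011% were at least 2-fold apart. The simulated wells held counting error around 1 shared profile and no spread between cells. Recovery was thus nearly fixed in advance, so the simulation checks the calculation and not the calls made in the real wells. Depth ranged from 63938 to 1471185 gene reads over the 28 wells. Alternatives were other scalings, well choices, minimum reads, plate rows and leaving out each well.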

Additional observations from a re-analysis of the deposited data

Results flagged for a closer look

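Negative control well 94 stood far above the other 3 control wells in the summed level of the 6 contractile genes, at 9867 CPM. It rested on 46 of 4662 gene reads, and the other control wells held 1377, 0 and 0 CPM from 4356, 3273 and 236 gene reads. The cutoff used flags about 1 in 20 groups of normally distributed values by chance. These values include ties at 0, and both ends of the contractile sum and of gene reads were checked, so that rate need not hold here. The source of these reads was not tested.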

How the results depend on the processing

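The comparison was repeated under 18 settings and without each of the 28 wells in turn, for 123 named genes with at least 100 reads. The counts of genes at least 2-fold higher and lower, 1954 and 1557, were 3418 and 798 with spike-in scaling, 810 and 637 with a minimum of 500 reads, 3020 and 2804 with a minimum of 1 read, and 978 and 830 with 10 CPM added. Leaving out 1 well gave 1795 to 2107 and 1460 to 1642. The S phase median of 1.53 was -0.14 with 10 against 10 wells, 2.88 in wells of at least 200000 reads, 3.16 in the top plate rows, -1.16 in the bottom rows and 3.30 in depth-matched wells, and 0.58 to 2.76 without 1 well. The G2 and M median of 3.27 was 0.45, 5.39, 6.34, -4.49 and 5.13 in the same order, 1.83 with 10 CPM added, 4.48 without the top well of each group, and 2.42 to 4.95 without 1 well. Among named genes at least 2-fold apart over the 28 wells, the log2 ratio reversed in the bottom rows for Col3a1 (-0.012), Nuak1 (-1.20), Sox9 (0.46), Rrm1 (-0.99), Tk1 (-0.22), Ube2c (-1.54), Hmox1 (0.10) and Krt7 (-0.96), and in the top rows for Upk1b (-1.31) and Mtap2 (-0.37). It reversed with 10 against 10 wells for Tk1 (-0.66), Ptgs2 (0.39) and Krt7 (-4.16), for Emilin1 (-0.020) when wells were ranked by Acta2 and for Fabp5 (-1.40) when ranked by the mean log2 level. The cause was not tested. The well-pair call, the depth matching, the CArG list and the fit without the top G2 and M wells were chosen after seeing the data. No paired analysis was possible because the groups share no replicate numbers. Depth limits genes read in few wells, and 1 culture on 1 plate gives no replicate of the comparison.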
